A study of Arabidopsis thaliana with 12 samples.

Results

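The genes described here are 55 Arabidopsis thaliana loci of the cell division cycle and of DNA replication, taken by locus identifier from a list drawn up with earlier results of these data known. No measured value enters the rule that picks them. All 55 were present among the 24035 genes that the deposited tables list in at least 1 of 12 libraries. By role they were 9 genes of replication origin licensing, 5 of the replication fork and of nucleotide supply, 5 A cyclins, 9 B cyclins, 4 B-type cyclin-dependent kinases, 4 other genes of mitosis and cytokinesis, 6 D cyclins with the kinase CDKA;1, 3 E2F factors, 5 KRP inhibitors and 4 SIM/SMR inhibitors. The first 14 are called S phase genes below, the 17 B cyclins, B-type kinases and other division genes are called mitotic, the 10 D cyclins, CDKA;1 and E2F factors G1 genes, and the 9 KRP and SIM/SMR genes inhibitors.

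Poly(A) RNA was sequenced from seedlings of the mutant cost1 and of wild type (WT), 3 libraries for each of 4 groups. The groups were cost1 seedlings dehydrated for 6 h, cost1 control seedlings, WT seedlings dehydrated for 6 h and WT control seedlings, all grown upright on plates for 10 days. The labels name the dehydrated groups by the word drought, describe the treatment as dehydration on a petri dish, give no time for the controls and do not state the cost1 allele. They do not state whether a group's 3 libraries stem from different plants or plates. The p-values below thus weigh a difference between groups only against the spread among these libraries, and that spread may be technical.

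In a plant cell that is about to divide, D cyclins bound to CDKA;1 inactivate the retinoblastoma protein and release E2F factors. E2F factors switch on the genes of S phase, among them the 6 subunits of the MCM helicase, which CDC6 and CDT1 load onto replication origins, the sliding clamp PCNA, and ribonucleotide reductase, which makes the deoxynucleotides. A and B cyclins with CDKA and CDKB kinases then carry the cell through G2 and mitosis, and MYB3R factors drive many of these genes through a short promoter element. KRP and SIM/SMR proteins bind cyclin-dependent kinases and hold them back. In a whole seedling such transcripts come mainly from the shoot and root meristems and from young leaves, and in these bulk samples fewer dividing cells and less RNA per cell cannot be told apart.

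The sequences just before some of these genes are shown because the elements named above belong to the promoters of the S phase and mitotic genes. They were read from the TAIR10.1 assembly, 5′ to 3′ on the strand of the gene, in a window of 300 bases before each annotated start. The words TTTCCCGC, TTTCGCGC, TTTGCCGC and TTTGGCGC were searched on both strands as E2F-type sites, and the letters AACGG, likewise, as the core of the element that MYB3R factors bind. An E2F-type word was found before 5 of the 14 S phase genes (35.7%), MCM2, MCM3, MCM4, MCM5 and MCM6, against 1.57% of 27443 protein-coding genes. It was found before 0 of the 17 mitotic genes, 0 of the 5 A cyclins, 0 of the 9 inhibitors and 1 of the 10 G1 genes, CYCD3;3. In the 5 stretches of 100 bases that follow, capitals mark the word on either strand.
MCM2, chr1:16970114-16970213, plus strand: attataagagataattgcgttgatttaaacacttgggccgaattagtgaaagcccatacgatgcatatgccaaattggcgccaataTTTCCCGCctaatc
MCM3, chr5:18773829-18773928, minus strand: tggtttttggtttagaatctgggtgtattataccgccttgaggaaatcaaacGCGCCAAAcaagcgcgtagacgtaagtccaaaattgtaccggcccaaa
MCM4, chr2:7130730-7130829, minus strand: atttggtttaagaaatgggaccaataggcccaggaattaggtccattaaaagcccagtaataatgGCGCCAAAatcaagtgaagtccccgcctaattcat
MCM5, chr2:3527501-3527600, minus strand: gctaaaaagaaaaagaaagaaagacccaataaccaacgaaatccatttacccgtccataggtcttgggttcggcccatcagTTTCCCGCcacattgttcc
MCM6, chr5:18010668-18010767, minus strand: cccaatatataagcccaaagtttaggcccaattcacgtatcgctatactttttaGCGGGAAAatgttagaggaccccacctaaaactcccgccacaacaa

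The word began within the last 46 bases before the annotated start in MCM2, MCM4, MCM5 and MCM6, and 170 bases before it in MCM3. The AACGG core was found before 12 of the 17 mitotic genes (70.6%) and 4 of the 5 A cyclins (80.0%), against 23.4% of all protein-coding genes. It was found before 1 of the 14 S phase genes (7.14%), MCM7, 2 of the 10 G1 genes (20.0%) and 5 of the 9 inhibitors (55.6%). The next 4 stretches, with the core in capitals on either strand, belong to a pair of B1 cyclins and to KNOLLE, a syntaxin of the cell plate, and to CYCB2;3. A match is a description of letters in this window only.
CYCB1;2, chr5:1861704-1861803, minus strand: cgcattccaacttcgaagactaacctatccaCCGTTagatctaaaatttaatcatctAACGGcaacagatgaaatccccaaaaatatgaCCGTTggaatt
CYCB1;3, chr3:3627274-3627373, minus strand: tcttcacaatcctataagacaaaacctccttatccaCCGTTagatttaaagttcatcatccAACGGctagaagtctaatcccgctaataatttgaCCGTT
KNOLLE, chr1:2711001-2711100, minus strand: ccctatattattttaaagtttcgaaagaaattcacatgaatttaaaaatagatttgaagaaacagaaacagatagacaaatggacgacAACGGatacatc
CYCB2;3, chr1:7137829-7137928, minus strand: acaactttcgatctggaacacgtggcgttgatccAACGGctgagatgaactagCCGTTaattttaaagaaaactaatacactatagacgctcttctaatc

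The expected counts of a library summed to between 5884728 and 6223687, and between 21003 and 21556 genes were listed in each. The 55 genes held 0.0490% to 0.0677% of the counts in cost1 dehydrated libraries, 0.110% to 0.117% in cost1 control, 0.0642% to 0.0759% in WT dehydrated and 0.112% to 0.121% in WT control. COST1 (AT2G45260), the gene the mutant is named for, had 4.95 to 5.47 FPKM in cost1 dehydrated, 3.22 to 4.69 in cost1 control, 13.3 to 16.9 in WT dehydrated and 15.3 to 19.2 in WT control libraries, so the genotype labels and its level match. On the first principal component of all genes, cost1 control replicate 2 lay at −50.4, against −91.1 to −86.7 for the other 5 control libraries and 60.1 to 114 for the 6 dehydrated ones. FPKM is the deposited level per length of transcript and per depth, and fold changes below are from edgeR on the deposited expected counts with TMM scaling, so a fold can differ from the ratio of the FPKM values beside it. Calls of a change use an adjusted p below 0.05, with the Benjamini-Hochberg adjustment over the 18809 genes tested.

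After dehydration the cell cycle genes were mostly lower, in both genotypes. In cost1, 35 of the 53 genes tested fell and 3 rose, with a median log2 change of −0.84, beside 24.5% lower and 26.4% higher of all genes tested and a median of −0.03. In WT, 27 fell and 2 rose, with a median of −0.61, beside 20.6% lower and 24.9% higher of all genes and a median of −0.02. In both genotypes 1 of the genes that rose was SMR5, which passed the filter on low counts only through its dehydrated libraries. In FPKM, every dehydrated library was below every control library for 42 of the 53 genes in cost1 and 40 in WT, beside 34.5% of all genes in cost1 and 38.3% in WT. It was above for 2 genes in each, beside 23.5% of all genes in cost1 and 25.2% in WT. The 2 responses share no library, but come from 1 fit of 12 libraries with a common estimate of spread. Of the 35 that fell in cost1, 74.3% also fell in WT, and of the 27 that fell in WT, 96.3% also fell in cost1. The same overlap over all genes was not computed, so these shares are not shown to be particular to the cell cycle genes. CYCA2;1 and SMR4, the 2 genes not tested, had too few counts, at 0.17 to 0.76 FPKM and 0.23 to 1.80 FPKM over the 12 libraries. Scaled by total counts alone, all genes tested had a median of −0.19 in cost1 and −0.16 in WT, and the share of higher among all called genes was 40.9% in place of 51.9% in cost1 and 42.8% in place of 54.7% in WT. That setting called 42 of the genes lower in cost1 and 30 in WT.

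**Figure D1:**
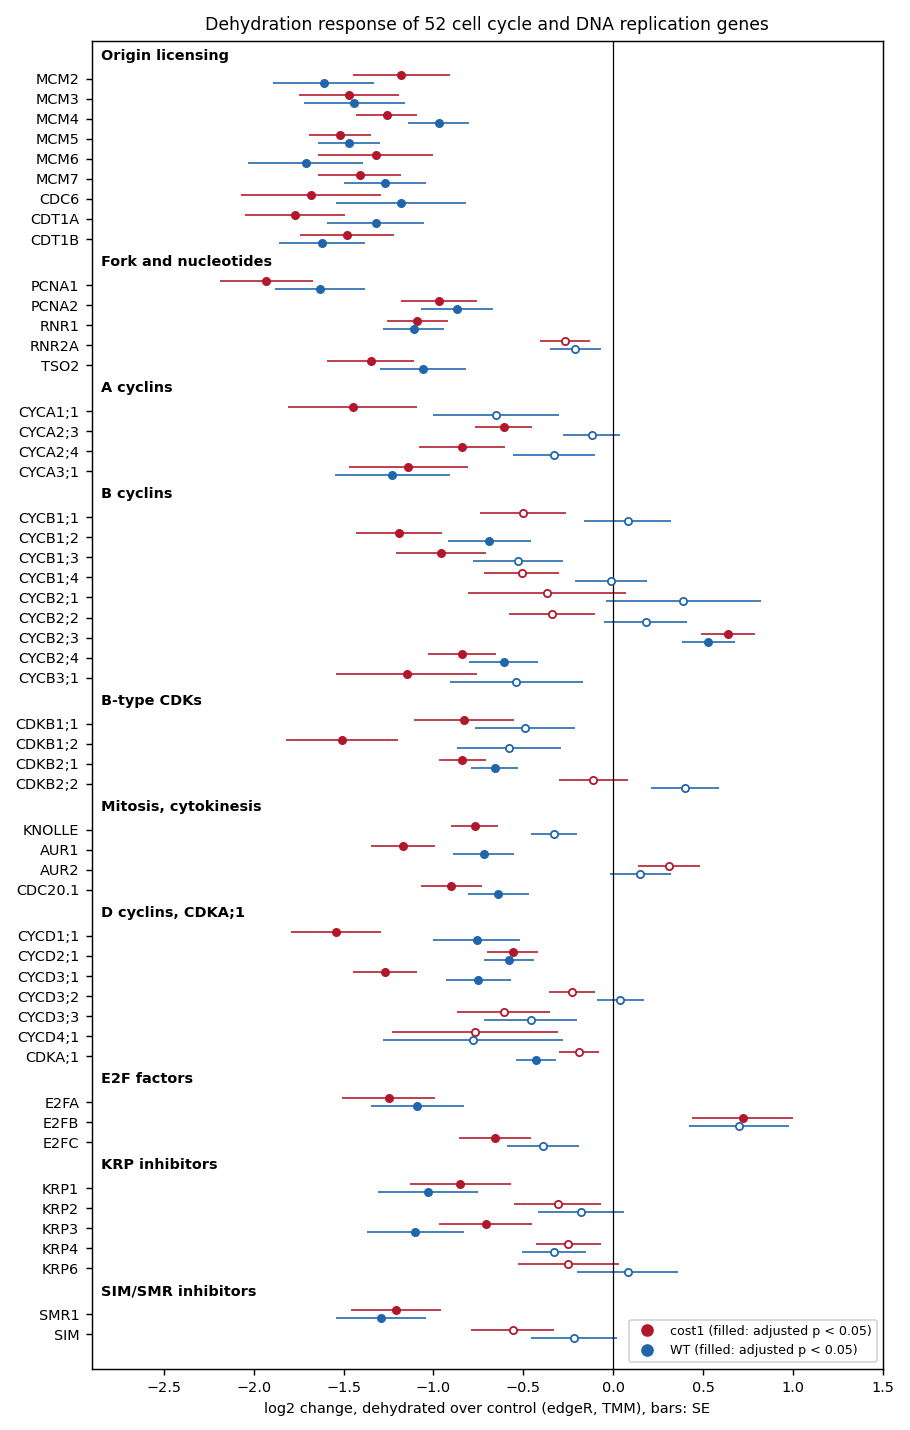
Log2 change of 52 of the 53 tested genes, dehydrated over control, for cost1 (red, upper point of each pair) and WT (blue, lower point), with SE bars, filled points called at adjusted p under 0.05. SMR5, at 5.6 in cost1 and 4.49 in WT, lies off the axis and is left out. The origin licensing genes lie between −1.77 and −0.97 in both genotypes, while mitotic genes spread from −1.51 to 0.64.

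The classes differed in how far and how evenly they fell. Of all genes tested, 24.5% were called lower and 26.4% higher in cost1, and 20.6% lower and 24.9% higher in WT. S phase genes had 13 of 14 lower in each genotype, with medians of −1.38 in cost1 (2.60-fold lower) and −1.29 in WT (2.45-fold lower). A cyclins had 4 of 4 tested lower in cost1 (median −0.99) and 1 of 4 in WT (−0.49). Mitotic genes had 10 of 17 lower and 1 higher in cost1 (−0.83), and 5 lower and 1 higher in WT (−0.49). G1 genes had 5 of 10 lower and 1 higher in cost1 (−0.64), and 5 lower in WT (−0.52). Inhibitors had 3 of 8 tested lower in each genotype, with medians of −0.44 in cost1 and −0.28 in WT, and the 1 called higher was SMR5. With the cost1 libraries paired by number and fitted alone, 2 of 4 A cyclins, 8 of 17 mitotic genes and 2 of 7 inhibitors were called lower in cost1, and 13 of 14 S phase genes.

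Single libraries moved the counts of 2 classes by more than 1.5 times. The inhibitors called lower in cost1 were 1 of 8, SMR1, without cost1 control replicate 2 or without cost1 dehydrated replicate 2. The mitotic genes called lower in WT were 3 of 17, CDKB2;1, AUR1 and CDC20.1, without WT control replicate 2, WT control replicate 3 or WT dehydrated replicate 2. Both counts are then below the shares of all genes called lower in the full fit, 24.5% in cost1 and 20.6% in WT. Of the 14 S phase genes, 13 or 14 were called lower in cost1 and 12 or 13 in WT when any 1 library was left out.

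**Figure D2:**
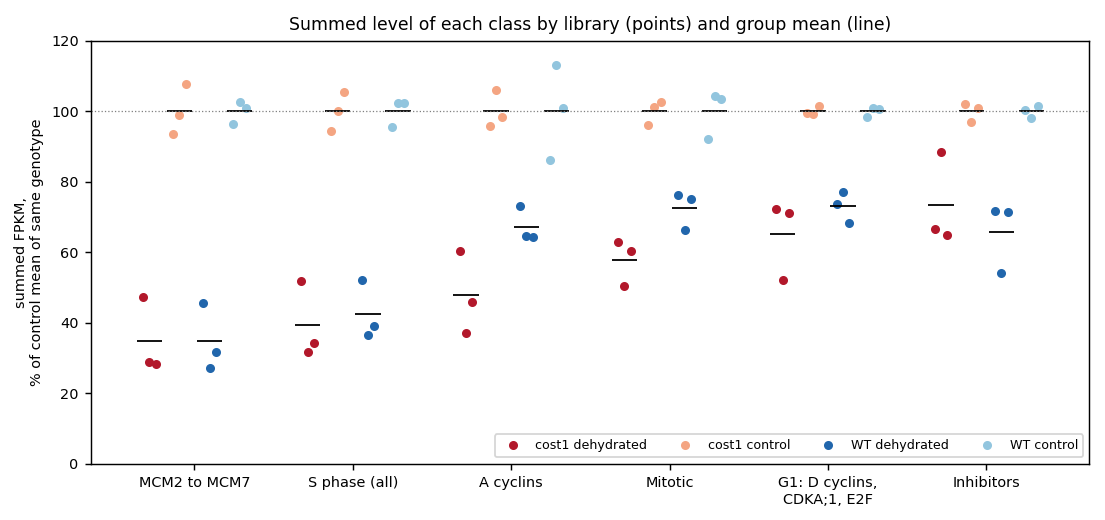
Summed FPKM of each class in each library, as a percentage of the control mean of the same genotype, with points for libraries and black lines for group means. Dehydrated libraries (dark) lie left of the control libraries of their genotype (pale). The sum of MCM2 to MCM7 lies between 27.1% and 47.3% in all 6 dehydrated libraries, and the mitotic sum between 50.3% and 76.2%.

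In the S phase sum, dehydrated replicate 1 stood above the other 2 dehydrated libraries in each genotype. It reached 51.8% of the cost1 control mean, against 31.6% and 34.3% in cost1 dehydrated replicates 2 and 3. In WT it reached 52.2% of the WT control mean, against 36.4% and 39.2%. Replicate 1 held the highest value of its group for 11 of the 14 S phase genes in cost1 dehydrated seedlings and for 12 of 14 in WT dehydrated seedlings. These libraries also lay lowest of the dehydrated ones on the first principal component, at 60.1 and 63.7, and the cause was not tested. Without replicate 1 the S phase median was −1.61 in cost1 (without cost1 dehydrated replicate 1) and −1.60 in WT (without WT dehydrated replicate 1).

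All 9 origin licensing genes fell in both genotypes, with medians of −1.47 in cost1 and −1.44 in WT. MCM5 (AT2G07690), a subunit of the hexameric replicative helicase, had the smallest p of the class. Its FPKM was 4.71, 3.95 and 3.35 in cost1 dehydrated libraries and 12.8, 12.6 and 13.6 in cost1 control libraries. WT dehydrated libraries had 5.40, 3.31 and 4.50, and WT control libraries 13.4, 13.2 and 13.3. Every dehydrated library was below every control library, and the control libraries of both genotypes were close together. The log2 change was −1.52 ± 0.17 in cost1 (SE, adjusted p = 2.82e-05, edgeR) and −1.47 ± 0.17 in WT (adjusted p = 3.80e-05), which is 2.86-fold lower in cost1 and 2.76-fold lower in WT.

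MCM4 (AT2G16440), another helicase subunit, had 4.73, 3.09 and 2.86 FPKM in cost1 dehydrated and 9.09, 9.92 and 9.36 in cost1 control libraries. It had 4.80, 4.36 and 4.39 in WT dehydrated and 9.53, 10.6 and 9.13 in WT control libraries, and the groups did not overlap in either genotype. Its change was −1.26 ± 0.17 in cost1 and −0.97 ± 0.17 in WT, the smallest fall of the 9 in WT (adjusted p = 0.000112 and 0.000662, edgeR). CDT1B (AT3G54710), a licensing factor that brings MCM proteins to origins, had 1.78, 1.06 and 1.78 FPKM in cost1 dehydrated and 5.19, 4.99 and 4.14 in cost1 control libraries. WT dehydrated libraries had 2.12, 2.41 and 1.60, and WT control libraries 5.14, 7.74 and 8.04. The WT control level thus varied more than the cost1 control level, and dehydrated and control libraries did not overlap. CDT1B fell by 1.48 ± 0.26 in cost1 and by 1.62 ± 0.24 in WT (adjusted p = 0.000632 and 0.000263, edgeR).

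MCM2, MCM3, MCM6 and MCM7, the other helicase subunits, had changes of −1.47 to −1.18 in cost1 and −1.71 to −1.27 in WT. CDT1A, the paralogue of CDT1B, changed by −1.77 in cost1 and −1.32 in WT. CDC6, which loads the helicase together with CDT1, was the lowest of the class, at 0.49 to 0.59 FPKM in cost1 dehydrated and 1.07 to 1.86 in cost1 control, and 0.52 to 1.39 in WT dehydrated and 1.93 to 2.17 in WT control libraries. Its expected counts were not whole in 3 libraries, and whether it shares reads with another locus was not tested, so its change of −1.68 ± 0.39 in cost1 and −1.18 ± 0.36 in WT is uncertain.

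Of the 5 genes of the fork and of nucleotide supply, 4 fell in both genotypes. PCNA1 (AT1G07370), the clamp that holds DNA polymerase on its template, had 5.24, 2.76 and 2.61 FPKM in cost1 dehydrated and 13.0, 17.9 and 13.7 in cost1 control libraries. It had 5.63, 4.39 and 3.93 in WT dehydrated and 15.5, 17.1 and 15.2 in WT control libraries. The groups were far apart, and the change, −1.93 ± 0.26 in cost1 and −1.63 ± 0.25 in WT, was called in both (adjusted p = 9.78e-05 in cost1 and 0.000265 in WT, edgeR), at 3.80-fold lower in cost1 and 3.10-fold lower in WT. PCNA2, its paralogue, changed by −0.97 ± 0.21 in cost1 and −0.87 ± 0.20 in WT.

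TSO2 (AT3G27060), a small subunit of ribonucleotide reductase, had the highest WT control level of all 55 genes, 60.3 ± 1.74 FPKM (SD, n = 3). Its FPKM was 28.9, 13.7 and 17.6 in cost1 dehydrated, 51.9, 57.3 and 60.2 in cost1 control, 35.0, 20.4 and 23.0 in WT dehydrated, and 62.0, 58.5 and 60.4 in WT control libraries. Dehydrated replicate 1 was again the highest of its group in both genotypes, and still below every control library. TSO2 changed by −1.35 ± 0.24 in cost1 and −1.06 ± 0.24 in WT (adjusted p = 0.000688 and 0.00322, edgeR). RNR1 (AT2G21790), the large subunit, had 13.6, 7.07 and 11.5 FPKM in cost1 dehydrated, 25.2, 24.0 and 26.3 in cost1 control, 13.4, 11.1 and 11.5 in WT dehydrated and 25.3, 29.9 and 31.0 in WT control libraries, and changed by −1.09 in cost1 and −1.11 in WT. RNR2A, another small subunit, was not called, at −0.27 ± 0.14 in cost1 (adjusted p = 0.134, edgeR) and −0.21 ± 0.14 in WT (adjusted p = 0.264). Its cost1 change was called lower in 4 of 21 alternatives, 3 of them without TMM scaling. TSO2 was thus called lower in both genotypes and RNR2A in neither, and the difference between them was not tested.

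**Figure D3:**
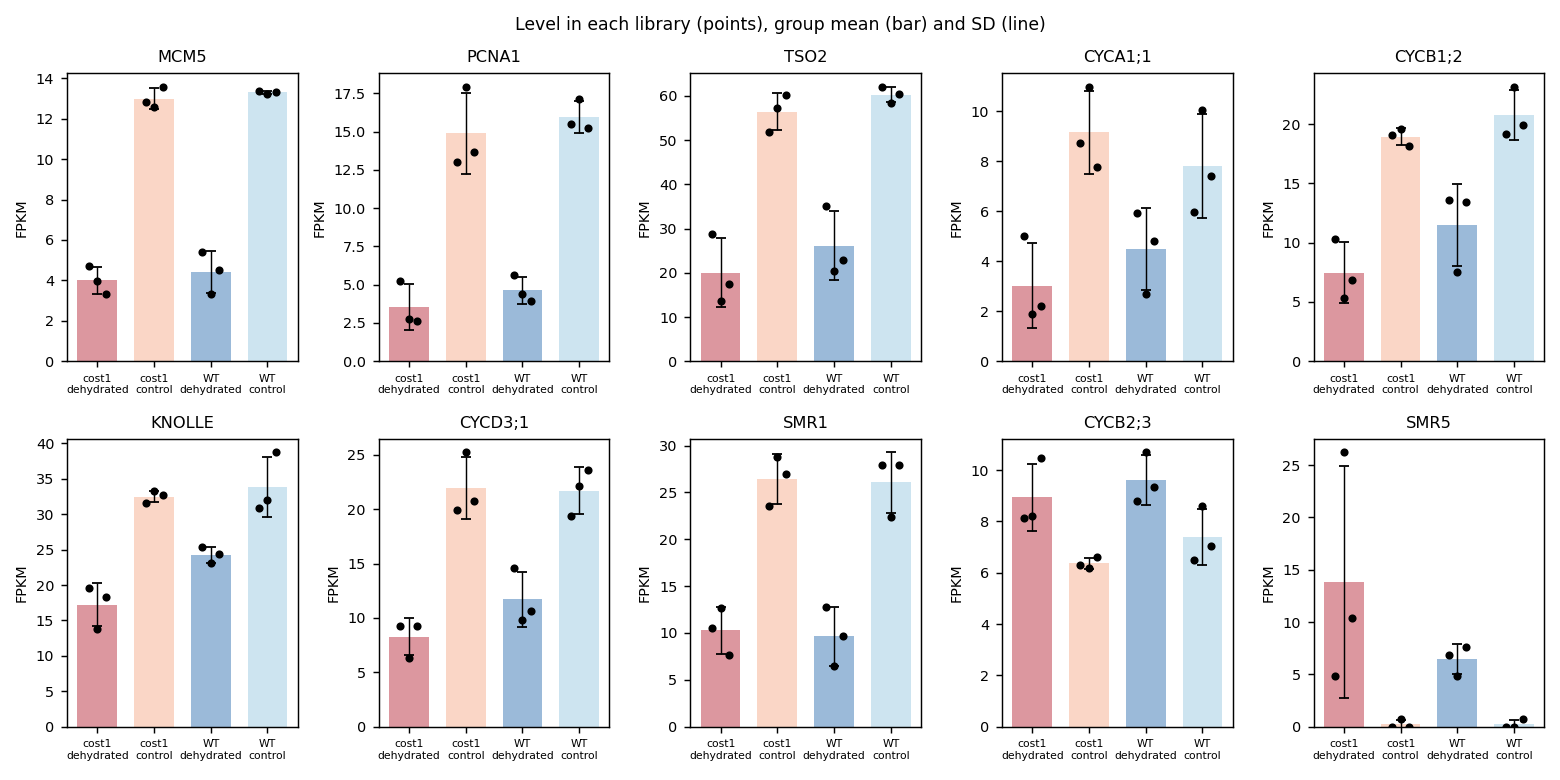
FPKM in each library (points), group mean (bar) and SD (line, n = 3) for 10 of the genes, with dehydrated groups left of their controls and cost1 left of WT. MCM5, PCNA1 and TSO2 show separate dehydrated and control libraries in both genotypes. SMR5 is the gene with 1 control library of each genotype above 0, and its 3 cost1 dehydrated libraries lie between 4.85 and 26.2 FPKM.

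A cyclins act from S phase to mitosis. CYCA3;1 (AT5G43080), of the S phase subgroup, had 1.79, 1.23 and 0.78 FPKM in cost1 dehydrated, 2.10, 3.97 and 2.86 in cost1 control, 1.23, 1.35 and 1.34 in WT dehydrated, and 3.57, 4.1 and 3.07 in WT control libraries. It was the A cyclin called in both genotypes, at −1.14 ± 0.33 in cost1 and −1.23 ± 0.32 in WT (adjusted p = 0.0127 and 0.00806, edgeR). The cost1 call was lost with the cost1 libraries paired and fitted alone (adjusted p = 0.0630, edgeR). CYCA1;1 (AT1G44110), an A1 cyclin of G2 and mitosis, had 4.99, 1.87 and 2.22 FPKM in cost1 dehydrated and 8.73, 10.97 and 7.76 in cost1 control libraries, a change of −1.45 ± 0.36 (adjusted p = 0.00597, edgeR). In WT it had 5.92, 2.69 and 4.81 in dehydrated and 5.95, 10.1 and 7.41 in control libraries, at −0.65 ± 0.35 (adjusted p = 0.151). The highest WT dehydrated library nearly reached the lowest WT control library.

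CYCA2;3 (AT1G15570), an A2 cyclin known to restrain endoreduplication, had 6.68, 5.39 and 7.22 FPKM in cost1 dehydrated and 11.8, 9.70 and 11.3 in cost1 control libraries, and changed by −0.61 ± 0.16 (adjusted p = 0.00807, edgeR). WT dehydrated libraries had 8.43, 11.1 and 8.26 FPKM and overlapped the WT control libraries with 9.10, 12.3 and 12.2, at −0.12 ± 0.16 (adjusted p = 0.557). The fourth tested A cyclin, CYCA2;4, changed by −0.84 ± 0.24 in cost1 and −0.33 ± 0.23 in WT. It was called in cost1 (adjusted p = 0.0120, edgeR), a call lost in the same paired fit (adjusted p = 0.0525), and not in WT.

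B cyclins, the partners of the kinases that drive mitosis, were split. CYCB1;2 (AT5G06150) had 10.3, 5.33 and 6.82 FPKM in cost1 dehydrated, 19.04, 19.6 and 18.2 in cost1 control, 13.6, 7.51 and 13.5 in WT dehydrated, and 19.2, 23.1 and 19.9 in WT control libraries. It changed by −1.19 ± 0.24 in cost1 and −0.69 ± 0.23 in WT (adjusted p = 0.00166 and 0.0293, edgeR), and its counts were not whole in 11 libraries, so the values are uncertain. CYCB2;4 (AT1G76310) had 3.40, 3.22 and 3.16 FPKM in cost1 dehydrated and 5.24, 7.08 and 8.10 in cost1 control libraries. In WT it had 5.90, 4.02 and 4.62 in dehydrated and 7.26, 8.64 and 10.0 in control libraries, and the changes were −0.84 in cost1 and −0.61 in WT. CYCB1;3 (−0.96) and CYCB3;1 (−1.15) were called lower in cost1 and not in WT (−0.53 for CYCB1;3 and −0.54 for CYCB3;1). The CYCB3;1 call was lost with the cost1 libraries paired and fitted alone (adjusted p = 0.0613, edgeR).

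CYCB2;3 was the B cyclin that rose. CYCB2;3 (AT1G20610) had 8.15, 8.20 and 10.5 FPKM in cost1 dehydrated and 6.30, 6.19 and 6.62 in cost1 control libraries, and 8.80, 10.7 and 9.34 in WT dehydrated and 6.50, 8.61 and 7.04 in WT control libraries. Every dehydrated library was above every control library of its genotype, by a narrow margin in WT. Its change was 0.64 ± 0.15 in cost1 (adjusted p = 0.00407, edgeR) and 0.53 ± 0.15 in WT (adjusted p = 0.0120). The WT call was lost with scaling by total counts alone, in both fits on FPKM and without WT control replicate 1, with adjusted p of 0.0101 to 0.0658 over its 20 alternatives. CYCB1;1, CYCB1;4, CYCB2;1 and CYCB2;2 were called in neither genotype, with changes of −0.51 to −0.34 in cost1 and −0.01 to 0.39 in WT.

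The B-type kinases are specific to plants and act at G2 and mitosis. CDKB2;1 (AT1G76540) had 9.58, 8.47 and 9.91 FPKM in cost1 dehydrated, 18.2, 18.3 and 19.2 in cost1 control, 10.1, 10.5 and 10.2 in WT dehydrated, and 14.5, 20.9 and 18.2 in WT control libraries. It changed by −0.84 ± 0.13 in cost1 and −0.66 ± 0.13 in WT (adjusted p = 0.000359 and 0.00196, edgeR). CDKB1;2 (AT2G38620) had 2.39, 1.33 and 1.15 FPKM in cost1 dehydrated and 5.68, 4.19 and 5.0 in cost1 control libraries, a change of −1.51 ± 0.31 (adjusted p = 0.00187, edgeR). In WT it had 3.59, 2.81 and 2.47 in dehydrated and 4.1, 5.04 and 5.60 in control libraries, at −0.58 ± 0.29 (adjusted p = 0.119).

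CDKB1;1 (AT3G54180) had 4.03, 3.07 and 2.25 FPKM in cost1 dehydrated, 5.31, 6.89 and 6.22 in cost1 control, 4.70, 2.50 and 4.50 in WT dehydrated and 7.09, 5.86 and 5.23 in WT control libraries. It was called in cost1 (−0.83 ± 0.28, adjusted p = 0.0289, edgeR) and not in WT (−0.49 ± 0.28, adjusted p = 0.170). The paired cost1 fit lost the call (adjusted p = 0.0526, edgeR). CDKB2;2 was called in neither, at −0.11 ± 0.19 in cost1 and 0.40 ± 0.19 in WT. The paralogues CDKB2;1 and CDKB2;2 were thus called differently, and the difference between them was not tested.

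Among the other mitotic genes, AUR1 (AT4G32830), an Aurora kinase of the spindle and cell plate, had 4.32, 3.45 and 4.42 FPKM in cost1 dehydrated and 11.3, 9.36 and 9.84 in cost1 control libraries. It had 6.75, 5.32 and 6.58 in WT dehydrated and 10.5, 13.7 and 9.87 in WT control libraries, and changed by −1.17 ± 0.18 in cost1 and −0.72 ± 0.17 in WT (adjusted p = 0.000235 and 0.00436, edgeR). KNOLLE (AT1G08560), the cytokinesis syntaxin, had 19.6, 13.8 and 18.3 FPKM in cost1 dehydrated and 31.6, 33.2 and 32.7 in cost1 control libraries, a change of −0.77 ± 0.13 (adjusted p = 0.000533, edgeR). WT dehydrated libraries had 25.4, 23.1 and 24.4, and WT control libraries 30.9, 32.0 and 38.8, at −0.33 ± 0.13 (adjusted p = 0.0527). The WT groups did not overlap, and the change was called lower in 6 of 20 alternatives, with adjusted p of 0.0137 to 0.213 over all 20.

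CDC20.1 (AT4G33270), an activator of the anaphase-promoting complex, had 16.3, 8.77 and 14.6 FPKM in cost1 dehydrated, 26.2, 27.2 and 28.6 in cost1 control, 18.4, 15.6 and 18.7 in WT dehydrated and 26.7, 32.2 and 32.0 in WT control libraries. It changed by −0.90 ± 0.17 in cost1 and −0.64 ± 0.17 in WT (adjusted p = 0.00122 and 0.00971, edgeR), with counts not whole in all 12 libraries, so that the values are uncertain. AUR2, the paralogue of AUR1, was not called, at 0.31 ± 0.17 in cost1 and 0.15 ± 0.17 in WT.

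D cyclins start the cycle in answer to sugars and hormones. CYCD3;1 (AT4G34160) had 9.28, 6.30 and 9.25 FPKM in cost1 dehydrated, 20.0, 25.3 and 20.8 in cost1 control, 14.6, 9.84 and 10.7 in WT dehydrated, and 19.4, 22.1 and 23.7 in WT control libraries. It changed by −1.27 ± 0.18 in cost1 and −0.75 ± 0.18 in WT (adjusted p = 0.000182 and 0.00526, edgeR). CYCD1;1 (AT1G70210) had 4.64, 1.67 and 3.60 FPKM in cost1 dehydrated, 9.67, 10.5 and 11.7 in cost1 control, 5.50, 5.77 and 4.51 in WT dehydrated and 8.54, 9.75 and 11.3 in WT control libraries. Its change was −1.54 ± 0.25 in cost1 and −0.76 ± 0.24 in WT (adjusted p = 0.000426 and 0.0236, edgeR).

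CYCD2;1 (AT2G22490) had 7.85, 6.62 and 6.88 FPKM in cost1 dehydrated, 11.9, 10.3 and 12.6 in cost1 control, 8.56, 6.39 and 8.24 in WT dehydrated and 12.2, 13.7 and 12.3 in WT control libraries, and changed by −0.56 in cost1 and −0.58 in WT. CYCD3;2, the most abundant D cyclin at 50.3 ± 1.35 FPKM in WT control (SD, n = 3), was not called, at −0.23 ± 0.13 in cost1 and 0.04 ± 0.13 in WT. CYCD3;3 and CYCD4;1 were not called in either genotype, with changes of −0.78 to −0.46, though with the replicate number as a block CYCD3;3 was called lower in cost1 (−0.66, adjusted p = 0.0355, edgeR). That fit also pairs the WT libraries, and with the cost1 libraries paired and fitted alone CYCD3;3 was not called (−0.69, adjusted p = 0.0595). CDKA;1, the kinase that D, A and B cyclins share, had 23.1, 19.9 and 26.8 FPKM in cost1 dehydrated, 28.4, 29.6 and 30.3 in cost1 control, 21.1, 19.4 and 21.2 in WT dehydrated and 31.1, 31.9 and 28.7 in WT control libraries. It was the gene called lower in WT (−0.43 ± 0.11, adjusted p = 0.00936, edgeR) and not in cost1 (−0.19 ± 0.11, adjusted p = 0.181), where 3 of 21 alternatives, all without TMM scaling, called it lower.

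The E2F factors differed among themselves. E2FA (AT2G36010), an activator of S phase genes, had 1.89, 1.18 and 1.60 FPKM in cost1 dehydrated, 3.76, 4.08 and 4.51 in cost1 control, 1.62, 2.22 and 1.60 in WT dehydrated and 3.08, 4.18 and 5.65 in WT control libraries. It changed by −1.25 ± 0.26 in cost1 and −1.09 ± 0.26 in WT (adjusted p = 0.00208 and 0.00480, edgeR). E2FC (AT1G47870), known mainly as a repressor, had 4.63, 4.24 and 4.73 FPKM in cost1 dehydrated, 6.33, 9.22 and 8.80 in cost1 control, 5.10, 4.66 and 3.80 in WT dehydrated and 7.27, 7.12 and 5.17 in WT control libraries. Its change of −0.66 ± 0.20 in cost1 was called (adjusted p = 0.0143, edgeR) and that of −0.39 ± 0.20 in WT was not (adjusted p = 0.130).

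E2FB (AT5G22220), the other activator, had 3.99, 5.93 and 8.15 FPKM in cost1 dehydrated and 4.07, 3.76 and 4.48 in cost1 control libraries, and 4.40, 8.56 and 5.32 in WT dehydrated and 5.12, 3.95 and 3.83 in WT control libraries. Dehydrated and control libraries overlapped in both genotypes. Its change of 0.72 ± 0.28 in cost1 just passed the threshold (adjusted p = 0.0476, edgeR), and the call was lost in 16 of 21 alternatives, where adjusted p ranged from 0.0123 to 0.210 over all of them. With the replicate number as a block it was 0.70 in cost1 (adjusted p = 0.0672). In WT it was 0.70 ± 0.28 (adjusted p = 0.0583), and it was called higher in 4 of 20 alternatives, with adjusted p of 0.0318 to 0.265 over all 20.

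Of the 8 inhibitors tested, 7 lay below 0 in cost1 and 6 in WT, beside 51.7% of all genes in cost1 and 51.2% in WT. SMR1, KRP1 and KRP3 were called lower in both, beside 24.5% of all genes called lower in cost1 and 20.6% in WT. SMR1 (AT3G10525), known to promote endoreduplication in sepals, had 10.5, 12.7 and 7.64 FPKM in cost1 dehydrated, 23.5, 28.8 and 26.9 in cost1 control, 12.8, 6.48 and 9.67 in WT dehydrated and 27.9, 22.3 and 27.9 in WT control libraries. It fell by 1.21 ± 0.25 in cost1 and by 1.29 ± 0.25 in WT (adjusted p = 0.00178 and 0.00137, edgeR). SMR5 (AT1G07500), known as an inhibitor induced by oxidative stress, went the other way. Its expected counts were 7, 38 and 15 in cost1 dehydrated libraries and 0, 1 and 0 in cost1 control libraries, and 10, 7 and 11 in WT dehydrated and 0, 0 and 1 in WT control libraries.

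Summed over each group, SMR5 had 60 counts in cost1 dehydrated against 1 in cost1 control, a ratio of 59.6 with a 95% interval of 10.3 to 2392. It had 28 in WT dehydrated against 1 in WT control, a ratio of 27.8 (95% interval 4.60 to 1138). The intervals are exact, from the 2 summed counts, and cover counting error only. SMR5 was called higher in both genotypes (adjusted p = 0.000721 in cost1 and 0.00602 in WT, edgeR). It passed the filter on low counts through its dehydrated libraries alone, and with only the groups compared in the fit it was not tested. A single library, cost1 dehydrated replicate 2, held 38 of the 60 cost1 counts.

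SIM (AT5G04470), which drives trichome endoreduplication, had 6.95, 4.62 and 9.25 FPKM in cost1 dehydrated, 12.3, 10.2 and 11.7 in cost1 control, 6.89, 7.41 and 7.58 in WT dehydrated and 7.97, 11.9 and 8.43 in WT control libraries. The groups did not overlap, but the change was not called, at −0.56 ± 0.23 in cost1 and −0.22 ± 0.24 in WT (adjusted p = 0.0624 and 0.469, edgeR). In cost1 it was called lower in 4 of 21 alternatives, with adjusted p of 0.0164 to 0.219 over all 21. KRP proteins are the plant relatives of the animal inhibitor p27. KRP1 (AT2G23430) had 6.99, 5.99 and 5.30 FPKM in cost1 dehydrated, 10.8, 13.4 and 12.5 in cost1 control, 5.82, 2.81 and 7.54 in WT dehydrated and 13.6, 10.9 and 12.2 in WT control libraries. KRP3 (AT5G48820) had 2.33, 2.32 and 1.75 FPKM in cost1 dehydrated, 3.34, 3.59 and 4.76 in cost1 control, 2.03, 1.33 and 1.75 in WT dehydrated and 4.35, 3.89 and 3.89 in WT control libraries.

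KRP1 and KRP3 were both called lower in each genotype and did not overlap between dehydrated and control libraries. KRP1 changed by −0.85 ± 0.28 in cost1 and −1.03 ± 0.28 in WT (adjusted p = 0.0225 and 0.00995, edgeR). KRP3 changed by −0.71 ± 0.26 in cost1 and −1.10 ± 0.27 in WT (adjusted p = 0.0394 and 0.00572, edgeR), and its cost1 call was lost in 13 of 21 alternatives, among them the replicate block (adjusted p = 0.0612), with adjusted p of 0.00707 to 0.146 over all 21. KRP2 had 7.13 to 8.55 FPKM in cost1 dehydrated, 9.18 to 13.8 in cost1 control, 5.47 to 11.3 in WT dehydrated and 10.1 to 10.4 in WT control libraries. The KRP2 groups did not overlap in cost1 and overlapped in WT. KRP4 had 10.0 to 10.4 FPKM in cost1 dehydrated, 9.87 to 17.9 in cost1 control, 10.5 to 13.0 in WT dehydrated and 14.4 to 17.2 in WT control libraries, and its WT groups alone did not overlap. KRP6 had 3.88 to 5.64 FPKM in cost1 dehydrated, 4.90 to 7.38 in cost1 control, 3.91 to 6.75 in WT dehydrated and 4.62 to 5.92 in WT control libraries, with overlap in both genotypes. None of KRP2, KRP4 and KRP6 was called, with changes of −0.31 to −0.25 in cost1 and −0.33 to 0.08 in WT, where the value of KRP6 turned to −0.07 with scaling by total counts alone.

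Between the genotypes, no cell cycle gene was called. Among control seedlings, cost1 against WT, edgeR and DESeq2 each called 0 of the 53 genes, beside 0.0213% of all genes (edgeR, either direction), and each gave 1 at an unadjusted p under 0.05 (4.75% of all genes in edgeR). That gene was CDT1B, at −0.55 ± 0.23 (adjusted p = 0.965, edgeR). The median difference was −0.04, and 33 of 53 genes lay below 0, beside 48.7% of all genes.

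Among dehydrated seedlings, cost1 against WT, most differences lay below 0 and none was called. Both tools called 0 of 53 genes, beside 0.0372% of all genes (edgeR, either direction), and both gave 11 at an unadjusted p under 0.05 (8.70% of all genes in edgeR). The median difference was −0.31, beside 0.01 for all genes, and 41 of 53 genes lay below 0, beside 48.6% of all genes. Of the 17 mitotic genes 16 lay below 0, with a median of −0.50, and so did 4 of 4 A cyclins, with a median of −0.47, against medians of −0.24 for S phase genes, −0.08 for G1 genes and 0.02 for inhibitors. The lowest adjusted p was that of KNOLLE, at −0.50 ± 0.13 (adjusted p = 0.487, edgeR), and the others at an unadjusted p under 0.05 were CYCA2;3, CYCB1;2, CYCB2;2, CYCB2;4, CDKB1;2, AUR1, CDC20.1, CYCD1;1, CYCD3;1 and CYCD3;2, at −0.91 to −0.42. None of the marker genes described below was called in this comparison. The 6 stomatal lineage markers all lay below 0 (median −0.44, 2 at an unadjusted p under 0.05, lowest adjusted p = 0.307, edgeR), as did 5 of 5 leaf mesophyll markers (median −0.23) and 3 of 3 root meristem markers (−0.22). Of leaf primordium markers 4 of 5 lay below 0 (−0.15), and of shoot meristem markers 1 of 3 (0.45). Their part in the difference was not tested. One library, cost1 dehydrated replicate 2, lay highest of all on the first principal component, at 114. It held the lowest value of its group for 9 of 17 mitotic genes, 9 of 10 G1 genes and 7 of 14 S phase genes. The same held for 3 of 5 A cyclins and 2 of 9 inhibitors. The part of this library in the genotype difference was not tested.

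In FPKM, every cost1 dehydrated library was below every WT dehydrated library for 12 of the 53 genes and above for 0, beside 4.72% (below) and 5.53% (above) of all genes tested. Of the 12, 8 were mitotic (3 B cyclins, 3 B-type kinases, KNOLLE and AUR1), 1 was an A cyclin, 2 were D3 cyclins and 1 was KRP4. None was an S phase gene. The genotype comparison under dehydration shares its libraries with both responses and is no separate evidence on them.

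**Figure D4:**
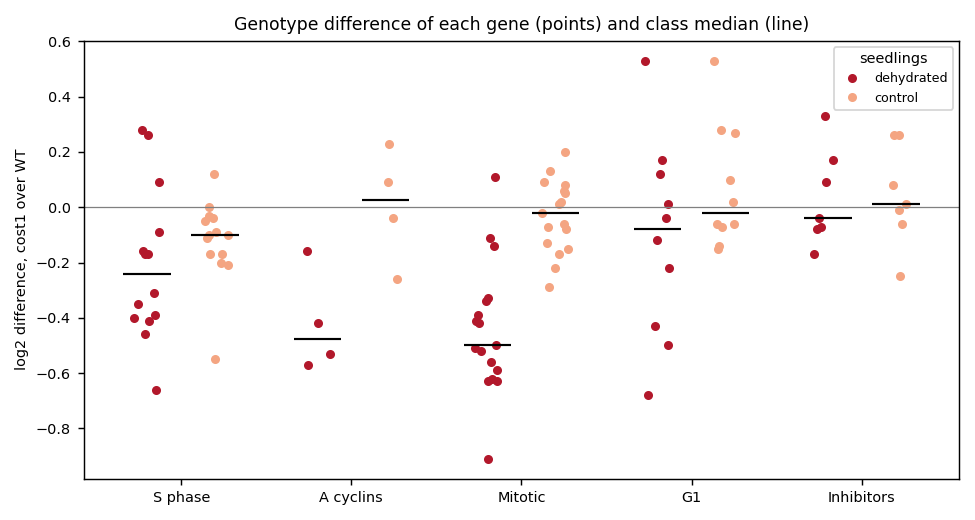
Log2 difference of each tested gene except SMR5, cost1 over WT, in dehydrated seedlings (dark red) and in control seedlings (pale), by class. Black lines are the medians of the points drawn. The mitotic genes of dehydrated seedlings lie around −0.50, with 16 of 17 below 0, while those of control seedlings lie around −0.02. SMR5, at 1.11 in dehydrated seedlings, is left out of the points and of the inhibitor medians drawn. No point passed the test.

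The interaction, cost1 response less WT response, tests the difference itself. It called 0 of the 53 genes by edgeR and by DESeq2, as it called 0.0% of all genes in edgeR, where 3.67% had an unadjusted p under 0.05. By both tools 2 of the 53 had one, KNOLLE at −0.44 ± 0.18 and CYCD1;1 at −0.78 ± 0.35 (adjusted p = 0.999 each, edgeR). The 9 genes called lower in cost1 and not in WT, CYCA1;1, CYCA2;3, CYCA2;4, CYCB1;3, CYCB3;1, CDKB1;1, CDKB1;2, KNOLLE and E2FC, are therefore not shown to differ in response. Of the 26 genes called lower in both, 17 had the larger fall in cost1, beside 52.3% of all genes tested with an interaction below 0. The same count over all genes called lower in both was not computed, so it is not shown to be particular to these genes.

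Other genes of replication, outside the 55, were lower in part. Of 15 tested, 8 fell in each genotype and 7 were not called, with medians of −0.86 in cost1 and −0.89 in WT. Of all genes tested, 24.5% fell in cost1 and 20.6% in WT. LIG1, DNA ligase 1, had 8.33 ± 0.95 FPKM in cost1 dehydrated and 16.9 ± 3.24 in cost1 control, and 8.29 ± 0.33 in WT dehydrated and 17.8 ± 2.41 in WT control seedlings (SD, n = 3 each), a change of −0.86 in cost1 and −0.96 in WT. CDC45, which joins MCM proteins in the active helicase, changed by −1.54 in cost1 and −1.26 in WT, and ORC1B, an origin recognition subunit, by −1.57 in cost1 and −1.76 in WT. The catalytic subunits of DNA polymerase alpha (ICU2) and epsilon (TIL1) were not called, ICU2 at −0.42 in cost1 and −0.44 in WT, and TIL1 at 0.21 in cost1 and 0.26 in WT.

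Of 12 other mitotic genes, 8 fell and 1 rose in cost1, beside 24.5% lower and 26.4% higher of all genes. In WT 6 fell and 1 rose, beside 20.6% lower and 24.9% higher of all genes. The gene TOPII, encoding DNA topoisomerase II, changed by −0.83 ± 0.11 in cost1 and −0.36 ± 0.11 in WT (adjusted p = 8.12e-05 and 0.0161, edgeR), and HIK, a kinesin of cytokinesis, by −0.97 in cost1 and −0.77 in WT. The gene that rose, TES, encodes another such kinesin and had 12.7 ± 3.39 FPKM in cost1 dehydrated and 4.05 ± 0.57 in cost1 control, and 11.3 ± 2.27 in WT dehydrated and 4.35 ± 0.52 in WT control seedlings (SD, n = 3 each). MYB3R1 and MYB3R4, the factors that bind the AACGG core, were not called, at 0.00 to 0.24. Of 6 genes of E2F partners and of atypical E2F factors, 1 fell in each genotype, beside 24.5% of all genes in cost1 and 20.6% in WT. It was the atypical E2F gene DEL1, at −1.56 in cost1 and −0.84 in WT. The retinoblastoma gene RBR1 was not called, at 0.05 ± 0.14 in cost1 and −0.05 ± 0.14 in WT.

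Most tested markers of dividing and young tissue lay below 0 after dehydration in both genotypes, and the root meristem marker WOX5 rose. The 5 leaf mesophyll markers lay below 0 as well. Of all genes tested, 24.5% were called lower in cost1 and 20.6% in WT. The shoot meristem markers STM, CLV1 and KNAT1 all fell in both genotypes (3 of 3 tested), and the list summed to 8.97 to 23.7 FPKM in cost1 dehydrated, 31.9 to 39.4 in cost1 control, 10.6 to 17.0 in WT dehydrated and 32.4 to 36.7 in WT control libraries. WUS and CLV3, which mark the centre of that meristem, were at or near 0 in all groups. Of 5 leaf primordium markers 4 fell in cost1 and 3 in WT, and their sum was 18.2 to 27.8 FPKM in cost1 dehydrated, 48.8 to 52.9 in cost1 control, 22.5 to 27.9 in WT dehydrated and 43.7 to 48.5 in WT control libraries.

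Of 6 stomatal lineage markers 5 fell in cost1 and 3 in WT, with sums of 25.4 to 30.9 FPKM in cost1 dehydrated, 44.0 to 60.7 in cost1 control, 33.2 to 41.3 in WT dehydrated and 50.3 to 57.0 in WT control libraries. Of 5 root meristem markers 3 were tested, and SHR and SCR fell in both genotypes, with PLT1 and PLT2, which define that meristem, at or near 0. WOX5 rose, by 3.57 in cost1 and 4.27 in WT. It may have passed the filter on low counts only through its dehydrated libraries. The 5 root meristem markers summed to 12.9 to 17.9 FPKM in cost1 dehydrated and 24.0 to 27.3 in cost1 control libraries. In WT they summed to 17.9 to 18.4 in dehydrated and 22.6 to 26.4 in control libraries. Of 5 leaf mesophyll markers, RBCS1A and CAB1 fell in cost1, and in WT the 5 lay at −0.58 to −0.07 without a call. The mesophyll sum was 13650 to 20480 FPKM in cost1 dehydrated, 23890 to 35040 in cost1 control, 15920 to 21870 in WT dehydrated and 25090 to 29810 in WT control libraries. The part of these tissues in the fall of the cell cycle genes was not tested.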

How the data were processed

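The 12 libraries have deposited tables of expected counts and FPKM per gene. The submitters' processing notes name TAIR10 as the build and HTSeq 0.6.0, STAR 2.4.0 and DESeq2 as tools, without their roles. The deposited expected counts are the authors' unscaled estimates, and the deposited FPKM values are scaled by the authors to length and depth, per the file headers. A gene that a table does not list was read as 0. Of the members, CDC6, CDC20.1 and CYCB1;2 had counts over 0.005 from a whole number.

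The rounded counts went into edgeR 4.0.16 (R 4.3.3) as 1 fit of 12 libraries with 4 groups, TMM scaling, filterByExpr and quasi-likelihood F tests with 8 residual degrees of freedom. This left 18809 genes, 53 of them members, and Benjamini-Hochberg adjustment ran over all of these. The SE beside an edgeR change was derived from its test, as the absolute log2 change over the square root of F. It is therefore approximate. Scripts were tested on simulated data. The alternatives were other scalings, no filter, DESeq2 1.42.0, limma 3.58.1 on log2(FPKM + 0.1) and log2(FPKM + 1), a replicate block, the groups compared alone, and each library left out. The main fit, which gave the calls and p-values above, had no replicate block. Same-numbered cost1 dehydrated and control libraries deviated together (correlations 0.171, 0.381 and 0.177 for replicates 1, 2 and 3). Other numbers reached 0.164, −0.21 and 0.14, so replicates 1 and 3 stood out by little. These numbers were taken as pairs only in an added cost1 fit. Correlations reached 0.043 in WT, where they were not. Dehydrated libraries of cost1 and WT correlated at 0.386, −0.06 and −0.178 by number.

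The members and the lists were chosen with earlier results of these data known. Library values are given for up to 3 genes of each role with the smallest p over both responses, for the inhibitors, and for CDC6 and CDKA;1, chosen after their values were seen. Other lists have up to 3 genes of smallest p, and ICU2, TIL1, MYB3R1, MYB3R4, RBR1 and the genes that rose or fell beyond these were likewise named after seeing values. Promoters were read from TAIR10.1, whose transcript lengths equalled the deposited ones for 11155 of 11155 genes with 1 transcript. The read statistics were not used.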

Additional observations from a re-analysis of the deposited data

How the results depend on the processing

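Of 38 members called in cost1, 29 were called the same way in all 21 alternatives, and of 29 called in WT, 23 in all 20. The rest, each lost in at least 1, were CYCA2;4, CYCA3;1, CYCB3;1, CDKB1;1, E2FB, E2FC, KRP1, KRP3 and SMR5 in cost1, and CDC6, CYCB1;2, CYCB2;3, CYCB2;4, CYCD1;1 and SMR5 in WT. Of those not called, 9 of 15 in cost1 and 7 of 24 in WT were called in at least 1 alternative. SMR5 could not be tested with the groups compared alone. The count of members called higher was 1 in WT with no scaling, in both FPKM fits and with the groups compared alone, and 1 in cost1 with the groups compared alone. With no scaling the median was −0.98 in cost1 and −0.63 in WT for mitotic genes, −0.59 in cost1 and −0.42 in WT for inhibitors, and −0.67 in WT for G1 genes. On log2(FPKM + 0.1) it was −0.99 in cost1 and −0.66 in WT for mitotic genes, −0.60 in cost1 and −0.43 in WT for inhibitors, and −0.66 in WT for G1 genes. For inhibitors in cost1 it was −0.52 on log2(FPKM + 1) and −0.56 with the groups compared alone. These scalings also shift the median of all genes, and no other cause was tested.

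With the replicate number as a block in the fit of all libraries, 35 members were called lower and 2 higher in cost1, and 27 and 2 in WT. An added block fit of the cost1 libraries alone, chosen after seeing the data, gave 30 lower and 1 higher and an inhibitor median of −0.58, without the calls of CYCA2;4, CYCA3;1, CYCB3;1, CDKB1;1, E2FB and KRP3, and without SMR5, which it did not test. The block changed no call between genotypes or in WT.

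With 1 library left out, members called lower numbered 30 to 36 in cost1 and 24 to 29 in WT, and those called higher 2 to 4 in cost1 and 2 to 3 in WT. Medians ranged in cost1 from −1.61 to −1.24 for S phase genes, −1.27 to −0.83 for A cyclins, −0.87 to −0.70 for mitotic genes, −0.86 to −0.44 for G1 genes and −0.51 to −0.36 for inhibitors. In WT they ranged from −1.60 to −1.10 for S phase genes, −0.70 to −0.32 for A cyclins, −0.49 to −0.29 for mitotic genes, −0.57 to −0.45 for G1 genes and −0.36 to −0.25 for inhibitors. A fit that leaves a group with 2 libraries assumes that they vary like the others. The sign of 2 uncalled WT values turned. With 1 library left out KRP2 ranged from −0.47 to 0.04, above 0 without WT dehydrated replicate 2, and KRP6 from −0.19 to 0.26. KRP6 was −0.07 with no scaling, −0.11 and −0.09 on FPKM, −0.03 without WT control replicate 3 and −0.19 without WT dehydrated replicate 3.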

Other observations

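Of 7 DNA damage genes, 1 fell in each genotype, the poly(ADP-ribose) polymerase gene PARP1, at −0.79 ± 0.14 in cost1 and −0.36 ± 0.14 in WT (adjusted p = 0.000600 and 0.0450, edgeR), beside 24.5% of all genes called lower in cost1 and 20.6% in WT. SOG1, the plant regulator of that response, was at 0.33 ± 0.13 in cost1 and −0.03 ± 0.13 in WT, called in neither. Of 5 genes for the activation of cyclin-dependent kinases, 1 fell in each genotype, CYCH;1, beside the same shares of all genes called lower. It had 3.71 ± 0.91 FPKM in cost1 dehydrated and 8.70 ± 1.64 in cost1 control, and 4.57 ± 1.16 in WT dehydrated and 8.10 ± 1.10 in WT control seedlings (SD, n = 3 each).

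Among 10 further inhibitor and endocycle genes tested, 2 fell and 2 rose in cost1, beside 24.5% lower and 26.4% higher of all genes. In WT 2 fell and 3 rose, beside 20.6% lower and 24.9% higher of all genes. The counts of both genotypes lie near these shares. The genes that fell in both were WEE1, a kinase that holds the cycle at checkpoints, at −1.17 in cost1 and −1.53 in WT, and CCS52B, an activator of the anaphase-promoting complex, at −0.44 in cost1 and −0.47 in WT. The 2 that rose in both were the loci AT5G40460, with 4.85 ± 0.59 FPKM in cost1 dehydrated and 1.39 ± 0.36 in cost1 control, and 4.98 ± 0.94 in WT dehydrated and 1.53 ± 0.36 in WT control seedlings (SD, n = 3 each), and AT1G10690. Of 8 further cyclins tested, 1 fell and 1 rose in cost1, and 3 fell and 1 rose in WT, beside the same shares of all genes. The one that rose in both was CYCD4;2, at 1.23 ± 0.29 in cost1 and 1.67 ± 0.30 in WT (adjusted p = 0.00393 and 0.000776, edgeR), beside CYCD4;1, its paralogue, at −0.77 ± 0.46 in cost1 and −0.78 ± 0.50 in WT.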
